A study of Homo sapiens with 6 samples.

Results

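The metallothionein genes were compared between HepG2 cells, a line from a human liver tumour, grown in an interwoven hollow fiber bioreactor (3D, 3 libraries) and cells grown on 6-well plates (2D, 3 libraries). The members were the rows of the gene count table with the symbols MT1E, MT1F, MT1G, MT1H, MT1M, MT1X and MT2A. Of these 7 genes, 6 had a row among the 19846 in the table and MT1H was not analysed here. A total of 5 members passed the filter on low counts and were tested together with all 15314 genes kept, and MT1M stayed below that filter.

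In the bioreactor the cells were held at 37 °C in equal parts of EMEM and DMEM with 10% FBS, penicillin and streptomycin, and GlutaMAX. The medium circulated at 23.5 mL/min and was fed at 2 mL/hour under air with 5% CO2. On the plates the cells were held at the same temperature and CO2 share in EMEM, and the medium was renewed on alternate days. No serum share is given for the plates in the sample values used here, which does not mean that serum was absent. All libraries carry the same passage range in their labels. Culture form, medium and feeding differed together and cannot be told apart, and the titles number the plates and the bioreactors without saying whether their cultures were started separately, so the p-values measure only the spread between these libraries, which may be technical. Total counts were 9530795 to 15897621 in 3D and 16270361 to 17943513 in 2D. Levels are given as CPM, the counts of a gene scaled for library size with TMM factors. The 10 hepatocyte marker genes summed to between 31327 and 50181 CPM in 3D, against 40202 to 44596 CPM in 2D, and of these APOA1 and TF were called higher in 3D and APOB lower. Of 10 markers of blood, endothelial and mesenchymal cells, 7 had a row, and these summed to between 60.2 and 89.2 CPM in 3D, against 49.1 to 53.1 CPM in 2D. Of these, CD68 and COL1A1 were called higher in 3D and PDGFRB and ACTA2 lower, and their part in the results below was not tested.

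Metallothioneins are small cysteine-rich proteins that bind zinc and copper and also take up cadmium. Zinc that enters the cell activates the transcription factor MTF1, which binds short metal response elements in metallothionein promoters, and glucocorticoids, inflammatory cytokines and oxidative stress raise the genes as well. The liver is a main site of their expression, where they buffer the zinc and copper that hepatocytes store and export. MT2A is the single functional gene of the MT2 class, while the MT1 class is a set of recent copies that lie side by side on chromosome 16.

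The coding sequences of the 5 tested members are shown because the copies are so alike that reads of a gene can match another. They were read from GENCODE release 29 (GRCh38), 1 transcript a gene. Capitals mark the bases that differ from MT2A in a pairwise alignment, so that MT2A has none.
MT2A: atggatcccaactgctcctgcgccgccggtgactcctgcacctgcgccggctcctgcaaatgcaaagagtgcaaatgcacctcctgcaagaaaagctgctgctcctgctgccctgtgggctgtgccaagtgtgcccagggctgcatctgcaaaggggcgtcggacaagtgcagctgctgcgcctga
MT1G: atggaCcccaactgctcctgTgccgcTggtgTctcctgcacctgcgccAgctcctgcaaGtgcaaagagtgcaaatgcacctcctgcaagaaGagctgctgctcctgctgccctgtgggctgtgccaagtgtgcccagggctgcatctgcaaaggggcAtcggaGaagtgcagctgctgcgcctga
MT1X: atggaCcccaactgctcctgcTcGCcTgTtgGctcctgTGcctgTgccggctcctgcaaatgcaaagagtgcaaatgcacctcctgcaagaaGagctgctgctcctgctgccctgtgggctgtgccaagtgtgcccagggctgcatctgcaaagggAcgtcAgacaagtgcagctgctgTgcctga
MT1E: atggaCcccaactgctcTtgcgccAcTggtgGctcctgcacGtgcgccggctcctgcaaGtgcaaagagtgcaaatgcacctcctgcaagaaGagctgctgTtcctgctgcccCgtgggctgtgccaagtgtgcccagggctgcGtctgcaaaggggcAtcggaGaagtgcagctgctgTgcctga
MT1F: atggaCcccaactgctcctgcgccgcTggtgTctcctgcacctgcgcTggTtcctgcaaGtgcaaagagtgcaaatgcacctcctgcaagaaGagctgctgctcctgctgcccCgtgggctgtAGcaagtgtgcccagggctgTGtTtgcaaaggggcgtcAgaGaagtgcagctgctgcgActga
MT2A lies at chr16:56608199-56609497 on the plus strand, MT1E at chr16:56625475-56627112 (plus), MT1F at chr16:56657694-56660698 (plus), MT1G at chr16:56666731-56668065 (minus) and MT1X at chr16:56682424-56684196 (plus), all in hg38. Each coding sequence is 186 bases long, MT1M included. MT1G was closest to MT2A, with 9 differing bases and 95.2% identity, and MT1E and MT1X each had 14 differing bases. The lowest identity of any pair was 88.7%, between MT1F and MT1X.

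The likeness of the copies was also read over whole transcripts. Windows of 50 bases that also occur in a transcript of another GENCODE gene made up 45.1% of the MT1X transcript and 20.2% of the MT1G transcript, against 5.34% for MT1E, 4.88% for MT2A and 3.59% for MT1F. With windows of 100 bases the share was 19.1% for MT1X and 0 for the other members. All 67 of these MT1X windows were shared with AC026461.1, a noncoding transcript annotated over the first exons of MT1X on the same strand. AC026461.1 is thus an overlapping annotation and not a copy. Of the 181 shared MT1X windows of 50 bases, 117 occur in it, 47 in MT1G and 38 in MT1XP1, and a window can occur in several genes. The 45.1% therefore overstates the likeness of MT1X to other metallothioneins. The sources used here do not give the read length, or how reads in such windows were counted and by which strand, so the MT1X and MT1G values are the more uncertain ones of the family. Some deposited values were not whole numbers. Those of MT1E were 343.833 in 3D replicate 3 and 312.668 in 2D replicate 1, while the pseudogene MT1P3 on chromosome 20 stood at 12.1672 and 9.33255 in those libraries. The sums of both genes lay within 0.00055 of a whole number in every library, and whether reads were divided between these genes was not tested. MT2A also had 2 values that were not whole, 636.999 in 3D replicate 1 and 901.001 in 3D replicate 3, both very close to whole numbers.

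The promoters of MT2A and MT1X are shown because these were the only 2 members with a sequence in the promoter set used here. Their matches can therefore not be set against those of the other members. MT2A is the most abundant member and MT1X the member that passed the test. The sequences are the 250 bases before the start in RefSeq (GRCh38.p14), at chr16:56608334-56608583 for MT2A and chr16:56682220-56682469 for MT1X, both on the plus strand. The RefSeq starts lie downstream of the GENCODE gene starts given above. The MT2A stretch thus lies within the GENCODE span of the gene, and the MT1X stretch runs past the GENCODE start. Capitals mark matches to TGCACNC or TGCGCNC on either strand, the core letters of the metal response element, where N is any base.
MT2A: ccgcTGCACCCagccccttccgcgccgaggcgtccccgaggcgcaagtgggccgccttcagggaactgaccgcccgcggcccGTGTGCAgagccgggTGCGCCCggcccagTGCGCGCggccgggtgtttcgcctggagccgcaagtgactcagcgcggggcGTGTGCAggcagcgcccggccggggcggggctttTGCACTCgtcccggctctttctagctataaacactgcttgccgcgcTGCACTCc
MT1X: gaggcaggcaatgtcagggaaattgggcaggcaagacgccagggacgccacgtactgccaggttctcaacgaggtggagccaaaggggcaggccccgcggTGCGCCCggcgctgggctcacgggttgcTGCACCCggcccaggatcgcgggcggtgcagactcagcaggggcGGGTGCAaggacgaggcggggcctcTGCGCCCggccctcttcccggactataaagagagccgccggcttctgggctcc
MT2A had 7 matches, at 246, 168, 153, 139, 88, 54 and 8 bases before the start, and MT1X had 4, at 150, 122, 78 and 53 bases. Among 35116 RefSeq promoters of that length, 24.8% had at least 1 match, 0.37% had at least 4 and 0.0313% had at least 7. A match describes letters and does not show that MTF1 was bound.

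All tested members had a positive log2 fold change of 3D over 2D, but only MT1X passed the edgeR test. MT1X stood at 13.2, 24.2 and 26.9 CPM in 3D replicates 1 to 3, against 9.70, 5.88 and 14.7 CPM in 2D replicates 1 to 3. The groups overlapped, because 2D replicate 3 lay above 3D replicate 1. MT1X averaged 21.4 ± 7.25 CPM in 3D and 10.1 ± 4.40 CPM in 2D (SD, n = 3 each), a rise with a log2 fold change of 1.09 (SE 0.35, edgeR adjusted p = 0.0370). Among all genes tested, 19.0% were called higher in 3D and 17.6% lower, so 1 call among 5 members is near the background. In bulk RNA a smaller number of cells with a transcript and less of it per cell cannot be told apart. The MT1X call was lost with no filter on low counts (edgeR adjusted p = 0.0595), with transcript length and GC content corrected (log2 0.62, adjusted p = 0.220), and without 3D replicate 2 (0.0951), 3D replicate 3 (0.107), 2D replicate 1 (0.112) or 2D replicate 2 (0.0763).

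MT2A was the most abundant member in every library and the member whose groups did not overlap. It stood at 63.2, 111 and 63.3 CPM in 3D, against 52.0, 19.6 and 59.1 CPM in 2D. Its lowest 3D library was thus only just above its highest 2D library, and by counting error alone their exact Poisson intervals, 58.4 to 68.3 CPM and 55.6 to 62.8 CPM, overlapped. MT2A averaged 79.3 ± 27.7 CPM in 3D and 43.6 ± 21.0 CPM in 2D (SD, n = 3 each), with a log2 fold change of 0.86 (SE 0.42, edgeR adjusted p = 0.149). It was 0.50 without 2D replicate 2, 0.53 without 3D replicate 2 and 0.32 with transcript length and GC content corrected. Groups that did not overlap, with 3D higher, were found for 25.6% of all genes tested, and with 3D lower for 24.9%. MT2A was not called under any alternative, with adjusted p-values between 0.0551 (limma-voom) and 0.738 (block for the replicate number, length and GC content corrected).

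MT1E, a widely expressed copy of the MT1 class, differed least. It stood at 10.0, 21.3 and 24.2 CPM in 3D, against 19.6, 6.61 and 24.7 CPM in 2D, so the groups covered nearly the same range. The log2 fold change was 0.14 (SE 0.50, edgeR adjusted p = 0.855), and it was −0.27 without 2D replicate 2, −0.10 without 3D replicate 3 and −0.40 with transcript length and GC content corrected. With the counts of MT1P3 added to MT1E it was 0.20 (edgeR adjusted p = 0.765).

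MT1F and MT1G, neighbouring copies transcribed towards each other, had the widest spread of the family among the bioreactor libraries. MT1F stood at 5.65, 16.9 and 23.6 CPM in 3D, against 10.5, 4.30 and 13.2 CPM in 2D, with a log2 fold change of 0.74 (SE 0.55, edgeR adjusted p = 0.334). MT1G, which is often silenced by DNA methylation in liver tumours, stood at 3.87, 10.7 and 16.8 CPM in 3D, against 6.01, 1.27 and 9.44 CPM in 2D, with a log2 fold change of 0.92 (SE 0.72, edgeR adjusted p = 0.358). Without 2D replicate 2 these were 0.38 for MT1F and 0.43 for MT1G, without 3D replicate 3 they were 0.30 and 0.40, and MT1G was at 1.53 without 2D replicate 3. In each of these genes 3D replicate 1 lay below 2D replicates 1 and 3, while 3D replicates 2 and 3 lay above all 3 plates. The lowest MT1G value came from 21 counts, with an exact Poisson interval of 0.788 to 1.95 CPM, so its gap to the other plates was larger than counting error.

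MT1M, another copy that is often silenced in liver tumours, was near the limit of detection. It had 0, 2 and 1 counts in 3D, against 4, 2 and 2 counts in 2D, and a floor of 3 counts corresponds to 0.167 to 0.298 CPM in these libraries. No difference of MT1M was detectable at this depth. Of 14 further metallothionein genes and pseudogenes, 3 had a row, MT1A, MT1P3 and MT1XP1, and 0 passed the filter on low counts. MT1A had 1, 5 and 5 counts in 3D, against 9, 3 and 6 counts in 2D.

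**Figure D1:**
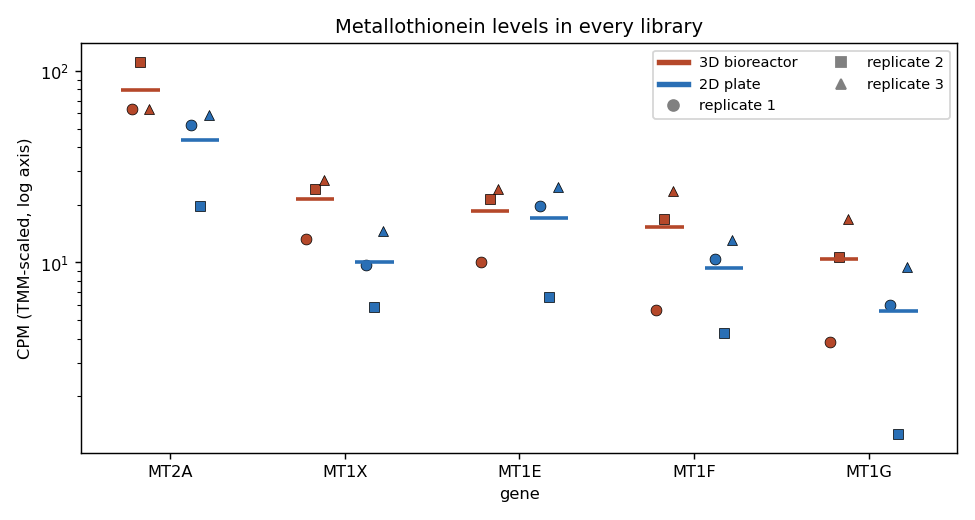
CPM of the 5 tested metallothioneins on a log axis in every library, with 3D (red) left of 2D (blue), replicates by symbol and bars at the group means. In every gene 2D replicate 2 is the lowest of the 6 libraries, 3D replicate 1 is the lowest bioreactor library, and in MT2A all 3D points lie above the 2D points.

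Per kilobase of transcript, the order of the members was led by MT2A in both cultures. MT2A reached 100.8 ± 35.3 CPM per kilobase in 3D and 55.5 ± 26.8 in 2D, and MT1X followed with 47.6 ± 16.1 in 3D, against 22.4 ± 9.77 in 2D (SD, n = 3 each). In 3D the levels of MT1E (26.3 ± 10.6), MT1G (25.7 ± 15.9) and MT1F (22.3 ± 13.1) did not differ beyond their spread. In 2D MT1E stood at 24.1 ± 13.2, MT1X at 22.4, MT1G at 13.7 ± 10.1 and MT1F at 13.5 ± 6.57, and neighbours in that order did not differ beyond their spread. The level per kilobase depends on the transcript chosen: with the longest transcript of the gene MT1X came to 12.4 in 3D and 5.84 in 2D, below MT2A, MT1E and MT1G taken the same way in each culture.

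The libraries differed more in the metallothioneins than in most genes, and the same libraries were high or low for all members. 2D replicate 2 was the lowest of the 6 libraries for 5 of 5 tested members, and 2D replicate 3 was the highest plate for 5 of 5. In 3D, replicate 1 was the lowest for 5 of 5 members and replicate 3 the highest for 4 of 5, with MT2A the exception. How many of all genes had the same order of libraries was not counted. The members are similar copies, so they are not separate observations of this order. Among the plates the ratio of the highest to the lowest library was between 2.49 (MT1X) and 7.41 (MT1G), against a median of 1.17 over 11314 genes with a mean of at least 5 CPM. A ratio of 2.49 or more was found in 0.849% of these genes. Among the bioreactor libraries the ratios were 1.76 (MT2A) to 4.34 (MT1G), against a median of 1.31 over the same genes, of which 8.89% reached 1.76. The total count of 3D replicate 1 was the lowest of the 6 libraries, that of 2D replicate 2 was within the range of the other plates, and the part of depth in this order was not tested.

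Summed over the 6 members with a row, the family showed the same spread. The sum was 95.9, 184.5 and 154.8 CPM in 3D, against 98.0, 37.8 and 121.2 CPM in 2D. The groups overlapped, with 3D replicate 1 below 2D replicates 1 and 3. The log2 difference of 3D minus 2D was 0.87, with a pooled SD of 0.72 within groups, and it was 0.34 without 2D replicate 2. Without both 2D replicate 2 and 3D replicate 1 it was 0.62. No test was made of this sum. The median log2 fold change of the 5 tested members was 0.86, against 0.02 over all genes tested, and it was 0.43 without 2D replicate 2, 0.40 without 3D replicate 3 and 0.32 with transcript length and GC content corrected. In the shortest of 10 groups of genes by transcript length, which holds all 5 members, the median was 0.39.

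**Figure D2:**
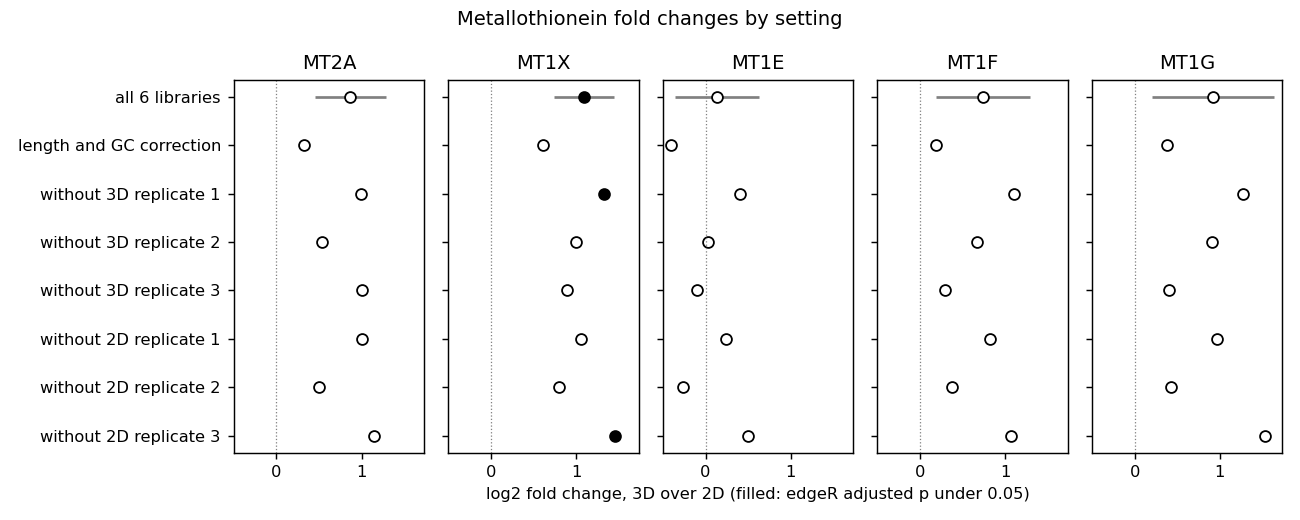
Log2 fold change of 3D over 2D for each tested metallothionein (columns) with all 6 libraries, with transcript length and GC content corrected, and without each library in turn (rows), with lines of ± 1 SE in the top row and filled points at an edgeR adjusted p under 0.05. Filled points occur only for MT1X in this plot, with all 6 libraries, without 3D replicate 1 and without 2D replicate 3, and the MT1E points lie on both sides of 0.

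The make-up of the family differed between libraries as well. MT2A made up 55.7 ± 13.1% of the summed counts in 3D and 51.3 ± 2.22% in 2D (SD, n = 3 each), with 65.9, 60.3 and 40.9% in 3D, against 53.1, 51.9 and 48.8% in 2D. The plates were thus close to each other in this share, while 3D replicates lay on both sides of them. MT1E made up 10.4, 11.6 and 15.6% in 3D, against 20.0, 17.5 and 20.4% in 2D, and these groups did not overlap. The closest libraries were 3D replicate 3 and 2D replicate 2. In 2D replicate 2 MT1E had 109 counts, with an exact Poisson interval of 5.43 to 7.97 CPM around 6.61 CPM. Whether the gap in share exceeds counting error was not tested. The groups did not overlap in the MT1M share either, from at most 4 counts a library, and no test was made of the shares. MT1X made up 14.7 ± 2.27% in 3D and 12.5 ± 2.85% in 2D.

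**Figure D3:**
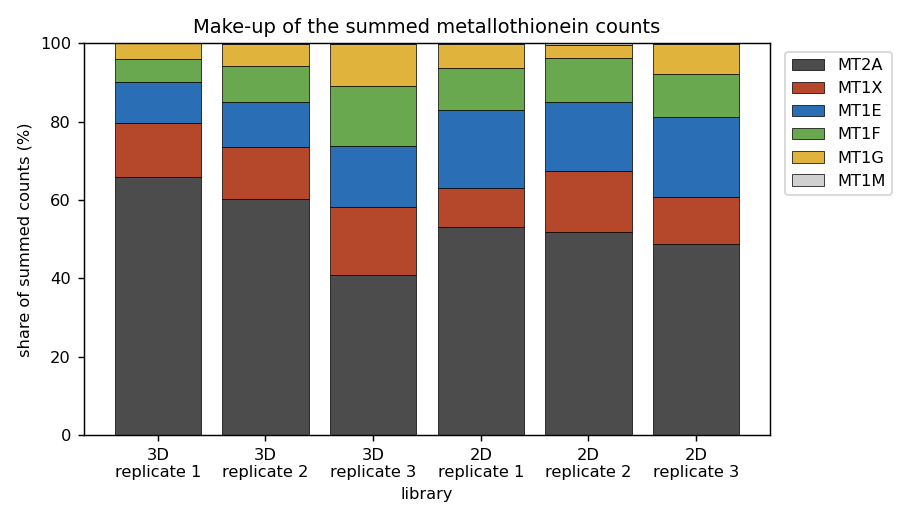
Share of each metallothionein in the summed counts of the 6 members, in percent, for the 3D libraries (left) and the 2D libraries (right). MT2A is the largest part of every bar, between 40.9% and 65.9% in 3D and between 48.8% and 53.1% in 2D, and the MT1E part is smaller in each 3D bar than in each 2D bar.

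Ratios between members within a library were compared for all 10 pairs of tested members. The ratio of MT1E to MT1X counts was 0.759, 0.880 and 0.901 in 3D, against 2.02, 1.12 and 1.69 in 2D, so it lay below 1 in the bioreactor libraries and above 1 on the plates. The 1.12 of 2D replicate 2 came from 109 MT1E and 97 MT1X counts. Their exact Poisson intervals, 5.43 to 7.97 CPM and 4.77 to 7.17 CPM, overlapped, so this ratio was within counting error of 1. The ratio of MT1E to MT1G was 2.59, 2.00 and 1.44 in 3D, against 3.26, 5.19 and 2.62 in 2D. For these pairs the groups did not overlap (log2 differences of −0.89 and −0.85, two-sided exact permutation p = 0.1 each, Benjamini-Hochberg adjusted p = 0.5 over 10 pairs), and 0.1 is the smallest p that 3 against 3 libraries allow. For MT1E to MT1G the gap lay between 2.59 in 3D replicate 1, with only 39 MT1G counts, and 2.62 in 2D replicate 3, within counting error. With MT1P3 added, MT1E had 125 and 449 counts in these libraries, against 39 and 170 for MT1G. This puts 3D replicate 1 above 2D replicate 3, so the groups then overlap. The exact permutation p of the other pairs was 0.2 to 1.

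The metal transport genes were read from lists of the zinc transporter families and of copper handling. Of 12 tested SLC39 genes, which encode zinc importers, 2 were called higher and 1 lower, near the share called over all genes (19.0% higher, 17.6% lower). With length and GC content corrected 1 was called higher and 3 lower. SLC39A4, the main importer of dietary zinc in the intestine, averaged 107.9 ± 27.0 CPM in 3D, against 45.6 ± 2.24 CPM in 2D (SD, n = 3 each), a rise with a log2 fold change of 1.24 (SE 0.16, edgeR adjusted p = 0.000293). The SLC39A4 value was 0.83 once length and GC content were corrected. SLC39A14, a zinc and iron importer of hepatocytes that inflammation induces, fell to 704.5 ± 127.4 CPM in 3D, against 1081 ± 66.3 CPM in 2D (log2 −0.62, SE 0.15, edgeR adjusted p = 0.00900). With that correction SLC39A14 was at −0.48. SLC39A1 rose with a log2 fold change of 0.31 (edgeR adjusted p = 0.0464), a call lost without any of the 6 libraries except 3D replicate 2. Of 7 tested genes of the SLC30 family, named for zinc export, 0 were called higher and 3 lower, against 19.0% and 17.6% over all genes. The counts were 1 higher and 2 lower once length and GC content were corrected. The 3 genes called lower without that correction were SLC30A5, SLC30A6 and SLC30A7, which load zinc into the secretory pathway. SLC30A6 fell to 45.3 ± 8.29 CPM in 3D, against 83.9 ± 2.44 CPM in 2D (log2 −0.89, SE 0.14, edgeR adjusted p = 0.000799), and was at log2 −0.58 once length and GC content were corrected. SLC30A5 and SLC30A7 were not called without 2D replicate 1 or 2D replicate 2 (edgeR adjusted p = 0.0705 to 0.132), SLC30A7 also not without 3D replicate 1 or 3D replicate 3 (0.0700 and 0.0810), and with length and GC content corrected they stood at log2 −0.18 and 0.02. SLC30A1, the exporter of the cell surface and like the metallothioneins an MTF1 target, stood at 65.2, 83.5 and 131.2 CPM in 3D, against 122.2, 138.5 and 129.4 CPM in 2D (log2 −0.48, SE 0.22, edgeR adjusted p = 0.117). Its 3D replicate 3 lay within the plates and the others below them, and without 3D replicate 3 the gene was called (log2 −0.81, edgeR adjusted p = 0.00394). Without 3D replicate 1 it was at log2 −0.29 (edgeR adjusted p = 0.216), and once length and GC content were corrected at −0.13 (0.725).

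Of 10 genes of copper handling, 5 were called higher and 2 lower, against 19.0% and 17.6% over all genes. The number called higher was 3 with length and GC content corrected, without 2D replicate 1 or without 2D replicate 2. ATOX1, the chaperone that delivers copper to the export pumps, averaged 29.6 ± 4.21 CPM in 3D, against 13.8 ± 1.55 CPM in 2D, a rise with a log2 fold change of 1.10 (SE 0.16, edgeR adjusted p = 0.000477), and 0.54 once length and GC content were corrected (adjusted p = 0.0258). COX17, the chaperone for cytochrome oxidase, rose with a log2 fold change of 0.87, and SOD1, the copper and zinc superoxide dismutase, with 0.84. With length and GC content corrected each of them was at 0.61. The other calls were CCS, which loads copper into SOD1 (log2 0.54), and COMMD1 (log2 0.46). Neither was called with length and GC content corrected (log2 0.09 and 0.17), CCS was not called without 2D replicate 1 or 2D replicate 2 (edgeR adjusted p = 0.0649 and 0.0507), and COMMD1 kept its call without 3D replicate 1 only among the single libraries left out. ATP7B, the hepatic copper pump, fell to 102.4 ± 9.503 CPM in 3D, against 167.0 ± 9.52 CPM in 2D (log2 −0.71, SE 0.12, edgeR adjusted p = 0.00108), and SLC31A1, the copper importer, fell with a log2 fold change of −0.56 (−0.36 with length and GC content corrected). ATP7B was at −0.55 with that correction. The other membrane transporters on the list, ATP7A and SLC31A2, did not pass the test (log2 −0.38 and −0.33, edgeR adjusted p = 0.211 and 0.405).

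Among 10 transcription factors known to act on metallothionein promoters, 1 was called higher and 4 lower, against 19.0% and 17.6% over all genes. The number called lower was 2 without 2D replicate 1. MTF1 itself stood at 14.1, 17.2 and 12.7 CPM in 3D, against 19.3, 17.7 and 15.98 CPM in 2D (log2 −0.27, SE 0.17, edgeR adjusted p = 0.230), and the difference was 0.0018 with length and GC content corrected. CEBPA, a liver differentiation factor, rose with a log2 fold change of 0.76 (0.44 with length and GC content corrected). CEBPB, its inflammation-induced relative, fell with −1.95, SP1 with −0.74, NR3C1, the glucocorticoid receptor, with −0.62, and STAT3, the factor of acute phase signalling, with −0.34. NR3C1 and STAT3 were not called with length and GC content corrected (log2 −0.23 each) or without 2D replicate 1 (edgeR adjusted p = 0.0575 and 0.0793), and STAT3 also not without 3D replicate 3, 2D replicate 2 or 2D replicate 3 (0.0531, 0.116 and 0.0973). Of 9 tested glucocorticoid receptor targets, 2 were called higher and 2 lower, near the 36.6% of all genes called either way: SGK1, a kinase of salt transport (log2 0.97), and GADD45B (log2 0.76) rose, and TAT, a tyrosine-degrading liver enzyme (log2 −1.96), and KLF9 (log2 −0.93) fell. GADD45B was not called with length and GC content corrected (log2 0.39).

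**Figure D4:**
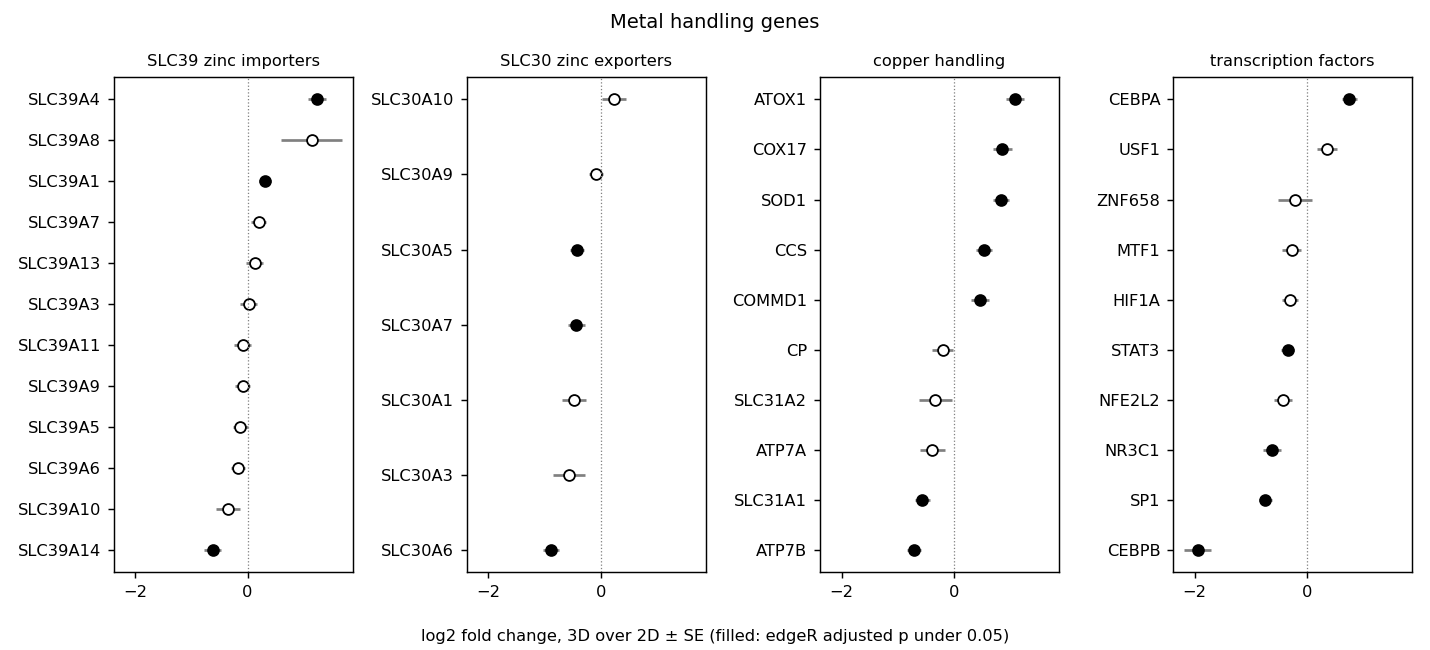
Log2 fold change of 3D over 2D with ± 1 SE for tested genes of the SLC39 and SLC30 families, copper handling and the transcription factors of metallothionein promoters. Filled points mark an edgeR adjusted p under 0.05. The 3 called zinc exporters lie below 0, and in copper handling the 5 genes called higher lie above 0 while ATP7B and SLC31A1 lie below it.

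Within 300 kb of the members 9 other genes were tested, of which 1 was called higher and 3 lower, near the 36.6% of all genes called either way. NUP93, a nuclear pore protein on the MT1X side, averaged 71.3 ± 4.98 CPM in 3D, against 37.7 ± 4.80 CPM in 2D, a rise with a log2 fold change of 0.92 (edgeR adjusted p = 0.000452). HERPUD1, an endoplasmic reticulum stress gene, fell to 102.8 ± 45.4 CPM in 3D, against 230.1 ± 35.1 CPM in 2D (log2 −1.16, edgeR adjusted p = 0.0159). The other calls, RP11-325K4.2 and RP11-325K4.3, are annotated inside introns of HERPUD1 on its strand so reads of these genes cannot be told apart from its own. RP11-325K4.2 was not called without 3D replicate 2, 3D replicate 3 or 2D replicate 2 (edgeR adjusted p = 0.0737, 0.0540 and 0.155), nor RP11-325K4.3 without 2D replicate 2 (0.0551).

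The genes whose pattern over the 6 libraries was closest to the summed metallothioneins were sought among 11309 other genes with a mean of at least 5 CPM, by the root mean square difference of log2 CPM centred on its mean. Among the 5 closest were KNSTRN, a spindle protein (0.256), CCNB2, a mitotic cyclin (0.270), ESCO2, a cohesin acetyltransferase (0.284), and NCAPG, a condensin subunit (0.286), while the median over all genes compared was 0.765. CCNB2 stood at 41.5, 48.8 and 53.3 CPM in 3D, against 27.7, 15.4 and 35.3 CPM in 2D. In each of these 4 genes 2D replicate 2 was the lowest library and 2D replicate 3 the highest plate, as in the metallothioneins. The genes were chosen for their likeness over these same libraries, so this shared order is no separate finding. The likeness rests on 6 libraries that share their scaling, and 0 of the 5 closest genes were among the closest 5 when 2D replicate 2 was left out.

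**Figure D5:**
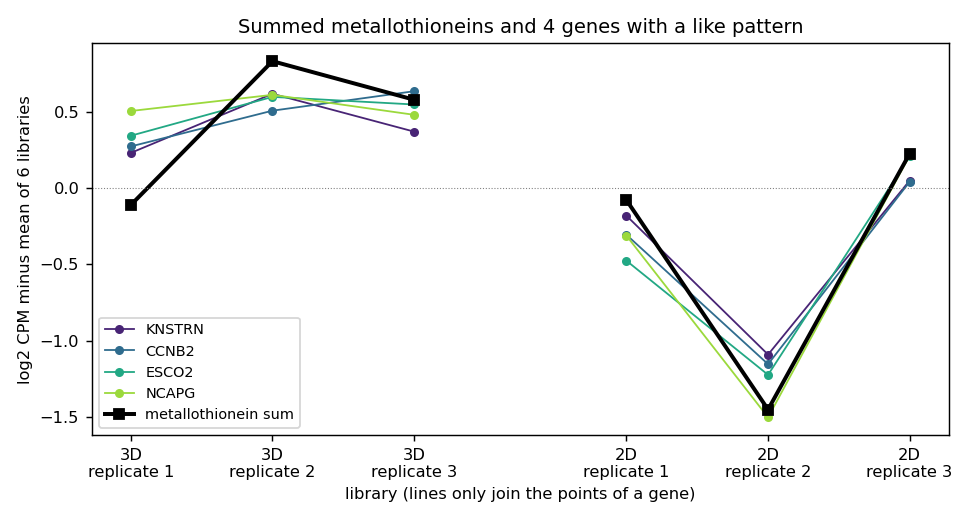
Log2 CPM minus its mean over the 6 libraries for the summed metallothioneins (black squares) and for 4 of the 5 genes with the smallest root mean square difference to them (0.256 to 0.286), in 3D (left) and 2D (right), with lines joining points of a gene for reading only. All 5 curves are lowest in 2D replicate 2, and the metallothionein sum lies below the 4 genes in 3D replicate 1.

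Transcript length moved with the comparison. When the tested genes with a known length were divided into 10 groups by it, the shortest transcripts (up to 1113 bases), which include all 5 tested members, had a median log2 fold change of 0.39, and the longest −0.40. With length and GC content corrected together the log2 fold changes were 0.62 for MT1X, 0.32 for MT2A, 0.38 for MT1G, 0.19 for MT1F and −0.40 for MT1E, and 0 of 5 members passed the edgeR test.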

How the data were processed

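Messenger RNA of 6 HepG2 libraries, 3 in 3D and 3 in 2D by their titles, was compared. The submitters' processing notes name the aligner STAR 2.4.1d, Partek software and hg38, while the annotation, the read length and the settings for strand and counting were not stated in the sources used here. The authors deposited estimated counts per gene, not scaled to a common total, which were rounded to whole numbers. The test was edgeR 4.0.16 (R 4.3.3): filterByExpr, TMM, a robust quasi-likelihood fit on culture alone, and adjustment by Benjamini-Hochberg over 15314 genes, called at an adjusted p under 0.05. The SE came from the F statistic. Alternatives used DESeq2 1.42.0, limma 3.58.1 voom, other scalings and filters, a replicate block, offsets from loess curves (span 0.5) on the length and GC content of transcripts from GENCODE release 29 (88.3% of tested genes matched by symbol), protein-coding genes only, and left-out libraries. The sum of MT1E and MT1P3 was added after seeing the data. Levels per kilobase used the principal transcript. In simulated data for this comparison (3 against 3 libraries, 15049 genes) the edgeR test recovered 24.5% of the 1.5-fold changes, 76.8% of the 2-fold changes and 96% of the 4-fold changes, and 10 of 146 calls were false. The simulation changed only a small part of the genes, whereas 36.6% were called in the data. Its rates are averages over all genes and do not give the power for the metallothioneins, whose libraries differed more than those of most genes. The members and gene lists were chosen with earlier results of these data known. Named genes were all members, listed genes, neighbours within 300 kb and the 5 genes closest to the sum, of which 1 is not reported here. Counting intervals and floors cover counting error only. Tables of protein sequence and some members' promoters were not used here.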

Additional observations from a re-analysis of the deposited data

How the results depend on the processing

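MT1X was called in 11 of 18 alternatives, MT1F in 1 of 18, MT2A and MT1G in 0 of 18 and MT1E in 0 of 19. The number of members called higher was 1 with all libraries and 0 to 1 when single libraries were left out. It was 0 with no filter on low counts and with length and GC content corrected (with or without the replicate block). Without both 2D replicate 2 and 3D replicate 1 it was 2, with MT1F called beside MT1X (edgeR adjusted p = 0.0274). These were the lowest plate and the lowest bioreactor library for all 5 tested members. Leaving both out cuts the low values of each group, so that call is no evidence on MT1F. The MT1E log2 fold change was −0.40 with length and GC content corrected, −0.34 with that and the replicate block, and −0.27 to 0.50 when single libraries were left out. With those corrections SLC30A7 was at 0.022 and 0.027 and MTF1 at 0.0018 and 0.0028, and the cause was not tested. Over all genes 2910 were called higher, and 1938 to 2817 when single libraries were left out, with 1938 without 2D replicate 1. Of the 5 genes closest to the summed metallothioneins, 0 to 3 were among the closest when single libraries were left out, and 0 without both 2D replicate 2 and 3D replicate 1. Deviations of same-numbered libraries correlated at 0.053, −0.0092 and −0.078 across genes, and those of libraries with unlike numbers at −0.081 to 0.103. These values show no pairing by replicate number, but cannot show whether cultures were started in matched pairs. With the replicate block 2747 genes were called higher and 2611 lower, the edgeR adjusted p was 0.0115 for MT1X, SLC30A1 was called (0.0280), and SLC39A1, COMMD1 and STAT3 were not. The depth limits MT1M and MT1A, which had at most 9 counts in a library.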
